A study of Mus musculus with 8 samples.

Results

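The 45 genes described here carry the name Nduf and encode the nuclear subunits of respiratory complex I, the factors that assemble the complex, and a pair of similarly named relatives. They were taken by name from the 38926 gene symbols of the count tables. The rule was every symbol made of Nduf, further lower-case letters and a digit, without pseudogenes. No measured value enters this rule, but the set was chosen with earlier results of these data known. The set holds 36 subunits, 7 assembly factors (Ndufaf1 to Ndufaf7) and a family of 2, Ndufa4 and its paralog Ndufa4l2, which is kept apart because the Ndufa4 protein is now counted with complex IV. All 45 passed the filter on low counts that left 16370 genes for testing. Ndufb1 is not analysed here, and the assembly factor Ndufaf8 stands in the tables under its older name 1810043H04Rik, outside the rule, with its values given beside the other assembly factors.

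Polyadenylated RNA of whole mouse bladder was sequenced in 8 libraries, 4 from the NeMO group and 4 from the Sham group. In NeMO the outlet of the bladder was partly obstructed by a nerve-sparing operation, and Sham animals had a sham operation, so surgery is common to both groups. Strain, sex, age and the time after the operation are not given in the labels, nor do they say whether each library is a different animal, so every p-value here measures only the spread between these libraries, which may be technical. A batch mark in the name of each submitted file puts NeMO replicates 1 and 3 and Sham replicates 1, 2 and 3 in batch 1 and the remaining 3 libraries, with Sham replicate 4 the sole Sham library, in batch 2.

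Complex I (NADH:ubiquinone oxidoreductase) is the entry point of electrons from NADH into the respiratory chain, and it pumps protons across the inner mitochondrial membrane while it passes those electrons to ubiquinone. Its matrix arm holds the flavin, the iron-sulphur clusters and the quinone site, its membrane arm holds the pumps, and a shell of accessory subunits surrounds the catalytic core. Most subunits come from nuclear genes with short messages, and the pump subunits come from mitochondrial DNA. Assembly factors bind intermediates and leave before the enzyme is finished. In the bladder the complex is present in smooth muscle, urothelium and every other cell with mitochondria, so in a bulk extract fewer cells of a type and less RNA per cell cannot be told apart.

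Sequence around the start site is shown for the 7 subunits that hold the motif, among 4 searched, that was found in the most subunit promoters. Promoters are the RefSeq windows on GRCm38.p6 from 250 bases before to 50 bases after each start site, which were given for 39 of the 45 genes (32 subunits, 6 assembly factors and 1 gene of the Ndufa4 family). The letters AAGATGGC, a match to the core motif of the zinc-finger factor YY1, were searched on both strands and occurred in 7 of 32 subunit promoters (21.9%), in 0 of 6 assembly factor promoters, and in 2.75% of all 32851 promoters. In each of the 7 the match reads in the direction of the gene, begins 23 to 39 bases after the start site, and its ATG is the annotated start codon. Each line gives 22 bases, 5′ to 3′ on the strand of the gene, with the motif in capitals.
Ndufa3 (chr7:3617385-3617406, plus strand): cgccaagaacAAGATGGCcggg
Ndufa9 (chr6:126849104-126849125, minus strand): attgtgggagAAGATGGCggcc
Ndufb8 (chr19:44555393-44555414, minus strand): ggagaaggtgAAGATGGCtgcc
Ndufc1 (chr3:51408922-51408943, minus strand): cctgcggaacAAGATGGCgccg
Ndufs4 (chr13:114388048-114388069, minus strand): tgcctacaggAAGATGGCggcg
Ndufs6 (chr13:73328438-73328459, minus strand): ggtcaccggcAAGATGGCggcg
Ndufs7 (chr10:80249463-80249484, plus strand): ggccgaggccAAGATGGCggcg

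Each of the other motifs was found in fewer subunit promoters. The palindromic motif of nuclear respiratory factor 1 (NRF1) was found in 1 of 32 subunit promoters (3.1%), that of Ndufa11. It was also in 2 of 6 assembly factor promoters, those of Ndufaf4 and Ndufaf5, against 0.971% of all promoters. The ETS core CCGGAAG, which can share the letters AAG with the YY1 motif but does so in none of the 7 windows, stood in 4 subunit promoters (12.5%) and 1 assembly factor promoter, against 8.86%. The ERR-alpha letters TCAAGGTCA were in no member's window and in 0.423% of all promoters. A match is a run of letters, and binding was not measured. The median log2 fold change (NeMO minus Sham) of the 7 subunits with the YY1 letters was −0.35, and that of the 25 without them −0.31, with ranges that overlapped (−0.44 to −0.19 and −0.55 to −0.19).

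Transcripts of complex I subunits measured lower in NeMO as a group. Medians of the modules with several genes ran from −0.34 to −0.28 on the log2 scale, and Ndufab1, the single acyl carrier subunit, had −0.21. Differences between modules were not tested. All 36 subunits had a log2 fold change below 0, where 51.7% of all genes tested did, and their median was −0.31 against −0.01 over all genes. None of the 36 passed edgeR's quasi-likelihood test at a Benjamini-Hochberg adjusted p of 0.05, a rule that called 0.0305% of the genes tested lower and 0.0733% in either direction. At an unadjusted p under 0.05, 33 of the 36 were lower, against 9.14% of the genes tested. Libraries of the groups did not overlap for 7 of the 36 subunits, against 3.81% of all genes. The 7 assembly factors were also all below 0, with a median of −0.20, of which 0 passed the adjusted test, 3 were lower at an unadjusted p under 0.05, and 0 had groups that did not overlap. Whether subunits and assembly factors differed from each other was not tested.

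**Figure D1:**
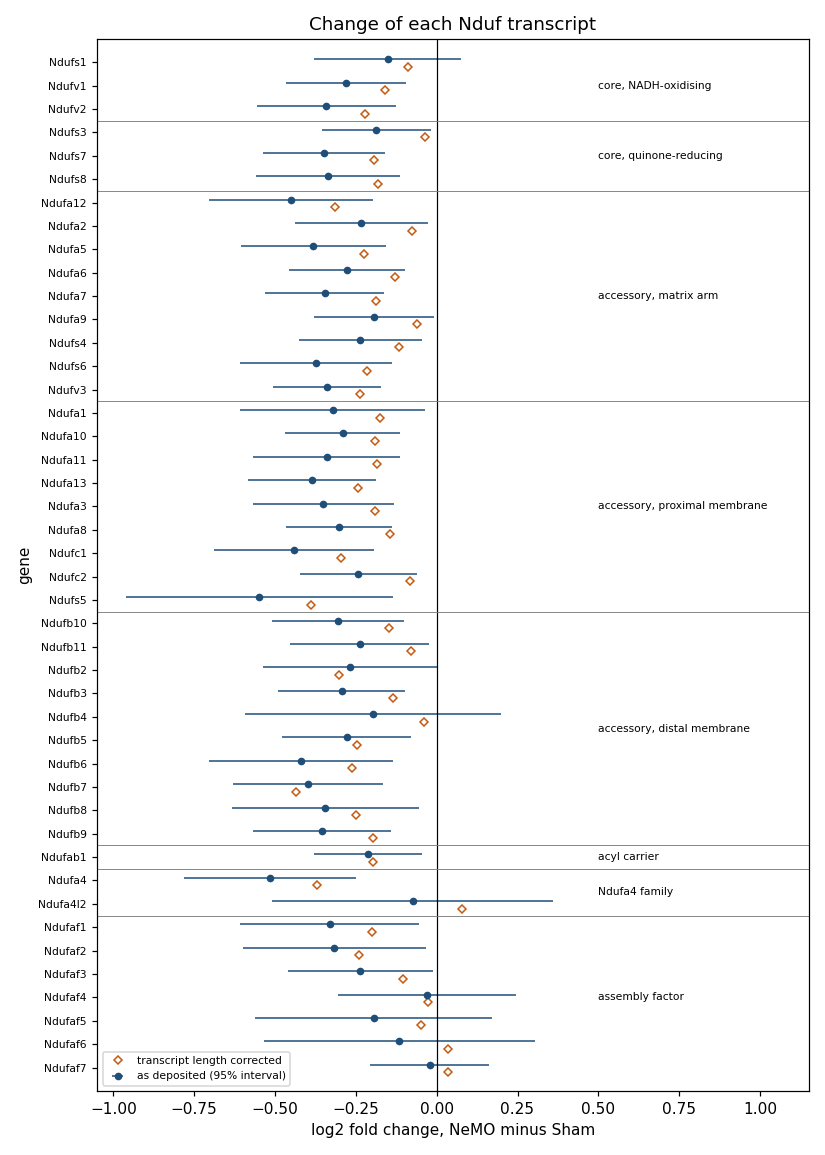
Log2 fold change (NeMO minus Sham) of each Nduf gene reported, grouped by role, with filled points and 95% intervals for counts as deposited and open diamonds after correction for transcript length. All filled points lie below 0, from −0.55 (Ndufs5) to −0.02 (Ndufaf7), and all but 3 of the diamonds do.

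Among the catalytic core subunits, the 7 nuclear genes that carry the electrons from NADH to quinone, log2 fold changes ran from −0.35 to −0.15 with a median of −0.28. Ndufv1, which holds the flavin and binds NADH, measured 131, 121, 111 and 130 CPM (CPM is the count scaled for library depth, here after TMM normalisation) in NeMO replicates 1 to 4, and 131, 145, 148 and 164 CPM in Sham replicates 1 to 4. NeMO replicate 1 and Sham replicate 1 thus had nearly the same level, and the other 3 Sham libraries were above all NeMO libraries. The log2 fold change was −0.28 (SE 0.08, edgeR adjusted p = 0.143). Its partner Ndufv2, an iron-sulphur protein of the NADH-oxidising module, measured 97.2, 96.5, 81.2 and 91.6 CPM in NeMO against 94.2, 115, 116 and 128 CPM in Sham. Again only Sham replicate 1 lay among the NeMO libraries (log2 fold change −0.34 with SE 0.10, edgeR adjusted p = 0.131). Ndufs1, the largest iron-sulphur subunit of the module, measured 139, 118, 103 and 113 CPM in NeMO and 125, 130, 143 and 131 CPM in Sham. NeMO replicate 1 lay inside the Sham range and the other 3 NeMO libraries were below every Sham library. Its log2 fold change of −0.15 (SE 0.10, edgeR adjusted p = 0.453) was the smallest in size of all subunits.

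In the quinone-reducing module the 4 core subunits were each lower at an unadjusted p under 0.05. Ndufs7, which carries the last iron-sulphur cluster before quinone, measured 47.5, 50.5, 41.4 and 52.3 CPM in NeMO and 49.95, 56.7, 60.5 and 67.4 CPM in Sham, with Sham replicate 1 inside the NeMO range (log2 fold change −0.35 with SE 0.08, edgeR adjusted p = 0.104). Ndufs8, another iron-sulphur protein, had a log2 fold change of −0.34 (SE 0.10, edgeR adjusted p = 0.143), with 53.0 to 59.3 CPM in NeMO and 54.2 to 82.5 CPM in Sham. Ndufs3, which carries no cluster, had −0.19 (SE 0.07, edgeR adjusted p = 0.230), with 26.0 to 35.3 CPM in NeMO and 29.5 to 38.9 CPM in Sham.

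Accessory subunits of the matrix arm, 9 genes in all, had a median of −0.34 on the log2 scale, and each of the 9 was lower at an unadjusted p under 0.05. Ndufv3, a small protein bound to the NADH-oxidising module (chr17:31520115-31531331, plus strand), had the smallest p of all subunits. It measured 59.4, 63.9, 50.2 and 61.5 CPM in NeMO and 68.1, 72.3, 71.0 and 77.0 CPM in Sham. Every NeMO library was below every Sham library, and the log2 fold change of −0.34 (SE 0.07) had an edgeR adjusted p of 0.0899. Ndufa12, which takes the place of the assembly factor Ndufaf2 late in assembly, measured 21.4, 18.2, 15.8 and 20.3 CPM in NeMO and 23.3, 25.7, 24.7 and 28.1 CPM in Sham. Its groups did not overlap either (log2 fold change −0.45 with SE 0.11, edgeR adjusted p = 0.110). Ndufa7 measured 54.9, 58.2, 51.8 and 59.1 CPM in NeMO and 57.7, 68.3, 67.1 and 81.8 CPM in Sham, and overlapped in Sham replicate 1 alone (log2 fold change −0.35 with SE 0.08, edgeR adjusted p = 0.103). Ndufs4, a late-added subunit whose loss causes Leigh-like disease in humans and mice, and Ndufa5 also had groups that did not overlap, with log2 fold changes of −0.24 and −0.38. For Ndufa5 the groups nearly touched, with NeMO replicate 1 at 41.7 CPM and Sham replicate 1 at 41.9 CPM. Ndufa2, Ndufa6, Ndufa9 and Ndufs6, the remaining genes of the arm, ran from −0.37 (Ndufs6, which helps bind zinc in the matrix arm) to −0.19 (Ndufa9, which sits where the arms join).

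Accessory subunits at the root of the membrane arm, again 9 genes, had a median of −0.34, and all 9 were lower at an unadjusted p under 0.05. Ndufa13, also known as GRIM-19, measured 72.4, 79.7, 65.4 and 88.3 CPM in NeMO and 77.2, 94.2, 94.8 and 113 CPM in Sham. Sham replicate 1 fell inside the NeMO range and the other 3 Sham libraries were above it (log2 fold change −0.39 with SE 0.09, edgeR adjusted p = 0.0972). Ndufa8, which faces the intermembrane space, measured 46.3, 51.5, 42.6 and 50.4 CPM in NeMO and 51.0, 55.8, 51.3 and 67.5 CPM in Sham, so NeMO replicate 2 sat just above 2 of the Sham libraries (log2 fold change −0.30 with SE 0.07, edgeR adjusted p = 0.104). The largest subunit difference was that of Ndufs5, at −0.55 (SE 0.18, edgeR adjusted p = 0.174), at low levels that ranged from 7.17 to 10.6 CPM in NeMO and from 8.04 to 16.8 CPM in Sham. A near copy of Ndufs5, described below, makes this value uncertain. Ndufa10 was the only gene of this module with groups that did not overlap (73.1 to 88.2 CPM in NeMO, 93.2 to 114 CPM in Sham). Log2 fold changes of the others, Ndufa1, Ndufa3, Ndufa11, Ndufc1 and Ndufc2, ran from −0.44 (Ndufc1) to −0.24 (Ndufc2).

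Accessory subunits of the distal membrane arm, 10 genes, had a median of −0.30, and 8 of them were lower at an unadjusted p under 0.05. Ndufb9 measured 103, 98.7, 83.4 and 103 CPM in NeMO and 101, 121, 122 and 138 CPM in Sham, with Sham replicate 1 among the NeMO libraries (log2 fold change −0.36 with SE 0.10, edgeR adjusted p = 0.123). Ndufb2 had 23.1 to 26.0 CPM in NeMO and 24.2 to 34.2 CPM in Sham (log2 fold change −0.27 with SE 0.12, edgeR adjusted p = 0.275). Ndufb4 had the largest p of all subunits. It measured 6.22, 6.56, 7.69 and 5.09 CPM in NeMO and 6.83, 9.80, 8.11 and 6.27 CPM in Sham (log2 fold change −0.20 with SE 0.18, edgeR adjusted p = 0.587). Its highest NeMO library was thus replicate 3 and its lowest Sham library replicate 4. The other 7 genes of the arm, Ndufb3, Ndufb5, Ndufb6, Ndufb7, Ndufb8, Ndufb10 and Ndufb11, ran from −0.42 (Ndufb6) to −0.24 (Ndufb11). Ndufab1, the mitochondrial acyl carrier protein that sits in both arms and also serves fatty acid synthesis, had tight and separate groups, with 23.2 to 26.7 CPM in NeMO and 28.6 to 30.2 CPM in Sham. Its log2 fold change was −0.21 (SE 0.07, edgeR adjusted p = 0.188).

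Ndufa4 had a larger difference than all but 1 of the subunits. This gene (the Ndufa4 protein is a subunit of cytochrome c oxidase) measured 162, 152, 119 and 146 CPM in NeMO and 170, 206, 225 and 213 CPM in Sham. All NeMO libraries were lower than all Sham libraries, the log2 fold change was −0.51 (SE 0.12), and the edgeR adjusted p was 0.0992. Its paralog Ndufa4l2, a known target of hypoxia-inducible factor, was far less abundant, with 6.105, 6.52, 9.20 and 8.83 CPM in NeMO and 6.69, 9.04, 6.94 and 9.08 CPM in Sham. The groups of Ndufa4l2 were interleaved (log2 fold change −0.07 with SE 0.19, edgeR adjusted p = 0.872).

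The assembly factors covered a range from differences like those of the subunits to values near 0. Ndufaf1, which works with Ecsit and Acad9 on the membrane arm, measured 20.2, 17.4, 14.6 and 15.8 CPM in NeMO and 19.8, 21.6, 23.5 and 21.3 CPM in Sham. NeMO replicate 1 was above Sham replicate 1, and the other libraries kept apart (log2 fold change −0.33 with SE 0.12, edgeR adjusted p = 0.205). Ndufaf2, the late-stage factor related to Ndufa12, measured 10.2, 9.64, 10.8 and 9.88 CPM in NeMO and 10.6, 12.7, 13.6 and 13.6 CPM in Sham (log2 fold change −0.32 with SE 0.13, edgeR adjusted p = 0.230). Only Sham replicate 1 lay inside the NeMO range. Ndufaf3, an early factor for the quinone module, had 12.4 to 15.4 CPM in NeMO and 14.5 to 18.9 CPM in Sham (log2 fold change −0.24 with SE 0.10, edgeR adjusted p = 0.251).

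Ndufaf4, the partner of Ndufaf3 in the same early step, gave a different picture, with its highest value in a NeMO library. It measured 28.8, 23.7, 20.9 and 20.7 CPM in NeMO and 21.9, 26.2, 26.3 and 23.7 CPM in Sham (log2 fold change −0.03 with SE 0.12, edgeR adjusted p = 0.923). Ndufaf7, a methyltransferase that acts early in assembly, measured 28.1, 26.6, 25.6 and 27.1 CPM in NeMO and 25.5, 28.5, 28.8 and 26.7 CPM in Sham, with a log2 fold change of −0.02 (SE 0.08, edgeR adjusted p = 0.915). Ndufaf5, which hydroxylates an arginine of Ndufs7, had −0.20 (SE 0.16, edgeR adjusted p = 0.558), with Sham replicate 1 the lowest of all libraries at 8.57 CPM. Ndufaf6 was the least abundant factor, with 4.54 to 5.79 CPM in NeMO and 4.27 to 6.34 CPM in Sham (log2 fold change −0.12 with SE 0.19, edgeR adjusted p = 0.785). For comparison, Ndufaf8 measured 13.7 ± 0.815 CPM in NeMO and 15.9 ± 2.42 CPM in Sham (SD, n = 4; log2 fold change −0.26 with SE 0.11, edgeR adjusted p = 0.258).

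The subunits shared their order of libraries to a large degree. NeMO replicate 3 was the lowest library for 30 of the 36 subunits, and a NeMO library was the lowest for each of the others. Sham replicate 4 was the highest for 26 subunits, Sham replicate 3 for 7 and Sham replicate 2 for 3. The mean log2 CPM over the 36 subunits was 5.62, 5.65, 5.43 and 5.64 in NeMO and 5.64, 5.90, 5.88 and 6.005 in Sham, so Sham replicate 1 lay with the NeMO libraries. Summed over the 36 genes, the level was 2071 ± 151 CPM in NeMO and 2483 ± 241 CPM in Sham (mean ± SD, n = 4 each), or 83.4% of Sham. Assembly factors summed to 108 ± 7.87 CPM in NeMO and 120 ± 10.1 CPM in Sham, or 89.97%, and their mean log2 CPM was again low in Sham replicate 1 (3.71, against 3.93 to 4.04 in the other Sham libraries).

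**Figure D2:**
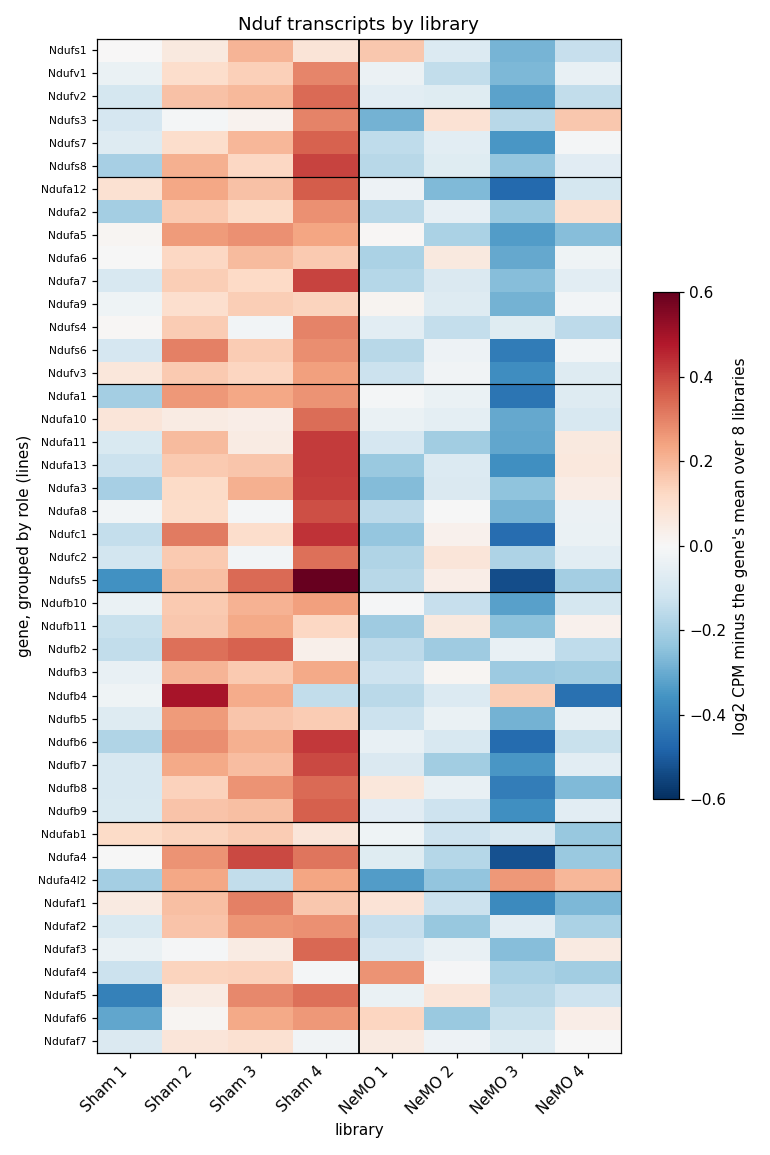
Log2 CPM of each Nduf gene reported in each library, minus the gene's mean over the 8 libraries, with genes grouped by role and libraries by group. Red cells gather in Sham replicates 2, 3 and 4 and blue cells in NeMO replicate 3, while Sham replicate 1 is pale or blue in most subunit rows.

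Results that turn on these libraries were computed without them. Without Sham replicate 1 the subunit median was −0.35 and the assembly factor median −0.25, and without NeMO replicate 3 they were −0.27 and −0.19. The assembly factor median of −0.20 moved most without Sham replicate 3 or Sham replicate 4, to −0.11 in either case. Without NeMO replicate 1, 12 subunits passed edgeR's adjusted test as lower (1.98% of all genes did), among them Ndufv1, Ndufv2, Ndufs7, Ndufv3 and Ndufa12. With DESeq2 on all 8 libraries, 13 subunits were called lower (2.72% of all genes) and 0 assembly factors. Of the 14 genes called by DESeq2 and the 13 called by edgeR without NeMO replicate 1, Ndufa4 included, 8 were shared: Ndufa10, Ndufa12, Ndufa4, Ndufa5, Ndufb7, Ndufb9, Ndufs7 and Ndufv3. Without Sham replicate 4, which leaves the group contrast to batch 1, 19 subunits and 0 assembly factors were lower at an unadjusted p under 0.05 (4.41% of all genes). In batch 1 alone the counts were 14 and 0 (4.56% of all genes) with subunit median −0.28 and assembly factor median −0.11. In batch 2 alone they were 20 and 0 (5.04% of all genes) with medians of −0.38 and −0.34, all against the single Sham library there (Sham replicate 4), which is assumed to vary like the NeMO libraries.

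Short messages are a feature of these genes. The median longest transcript was 1025.5 nucleotides for subunits (419 to 4435), 1487 for assembly factors (1082 to 3632) and 3211 for all genes tested, by GENCODE on GRCm38. Across genes, the difference between NeMO and Sham moved with transcript length. Of the 1099 genes with a longest transcript under 1 kb, 68.1% were below 0 and 18.4% were lower at an unadjusted p under 0.05, with a median of −0.17. The median was −0.12 at 1 to 2 kb (16.4%), −0.04 at 2 to 4 kb (8.69%) and 0.09 above 4 kb (4.49%). In single libraries, the rank correlation across genes between transcript length and the deviation from the gene's mean was 0.00 to 0.26 in NeMO and −0.27 to 0.00 in Sham, with genes not being independent replicates. RNA integrity values are not given in the labels.

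Subunits measured below the median of genes of like length in each class. The 17 subunits under 1 kb had a median of −0.34, and 16 of them were lower at an unadjusted p under 0.05. Those of 1 to 2 kb (11 subunits) had −0.28 and those of 2 to 4 kb (6 subunits) had −0.28. The pair of subunits above 4 kb, Ndufb2 and Ndufb7, had −0.33, but their longest transcripts are far longer than their median coding transcripts. Assembly factors of 1 to 2 kb (4 genes) had a median of −0.22, and the 3 of 2 to 4 kb had −0.03, close to the −0.04 of all genes in that class. Those 3 were Ndufaf2 at −0.32, Ndufaf4 at −0.03 and Ndufaf7 at −0.02. The median coding transcript of Ndufaf2 is 617 nucleotides, in place of 2404 for its longest.

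**Figure D3:**
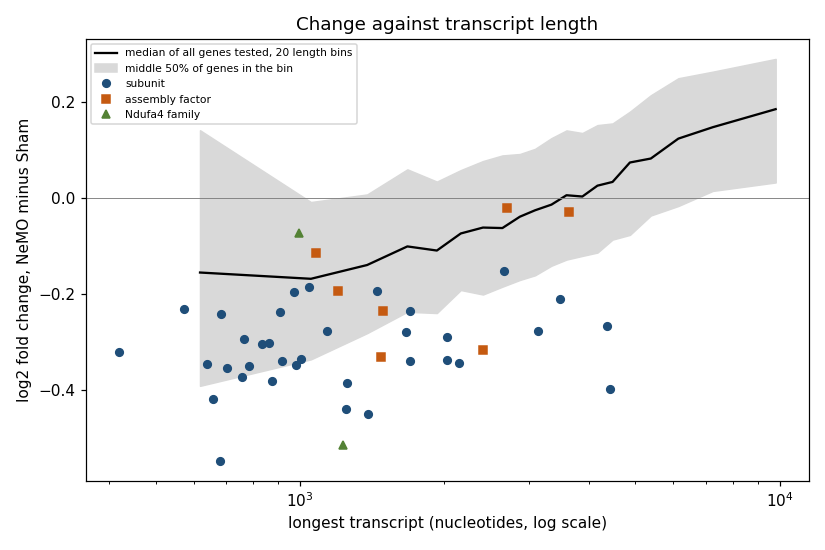
Log2 fold change (NeMO minus Sham) against the longest transcript in nucleotides (log scale), with the median and middle 50% of all genes tested in 20 length bins. Subunits lie below the line at every length, and the 3 assembly factors between 2 and 4 kb range from −0.32 to −0.02.

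With each library's length trend removed by a spline, the differences were smaller and the subunits remained below 0. The subunit median became −0.19, with 36 of 36 below 0 (47.9% of all genes), 12 that also had an unadjusted p under 0.05 (5.81% of all genes), and 0 past the adjusted test (0.0247% of all genes). The assembly factor median became −0.05, with 5 of 7 below 0 and 0 lower at an unadjusted p under 0.05. Over all genes the corrected median was 0.01. With GC content corrected as well 12 subunits met the unadjusted p (5.96% of all genes), and with the length of the median coding transcript in place of the longest 14 did (5.93% of all genes). Among the named subunits, corrected log2 fold changes were −0.44 for Ndufb7 (−0.26 by its median coding transcript, of 623 in place of 4435 nucleotides), −0.31 for Ndufa12, −0.24 for Ndufa13, −0.24 for Ndufv3 and −0.04 for Ndufs3. Ndufa4 had −0.37, Ndufaf1 −0.20 and Ndufaf2 −0.24 (−0.18 by its median coding transcript). Ndufaf6, Ndufaf7 and Ndufa4l2 moved to small positive values (0.04, 0.04 and 0.08).

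Levels were compared between genes per kilobase of transcript. In Sham, Ndufb9 (171 ± 21.5 CPM per kb of its longest transcript, SD, n = 4) and Ndufa2 (123 ± 16.6), which belongs to the matrix arm, were the most abundant subunits. The least abundant on this scale were Ndufb2 (6.83 ± 1.12) and Ndufb4 (7.98 ± 1.61), and Ndufb4 has a near copy, described below, that makes its value uncertain. Among core subunits, Ndufs3 stood at 31.5 ± 3.93 and Ndufv1 at 88.5 ± 8.36. The assembly factors were all at the low end, from 5.12 ± 0.882 (Ndufaf6) to 14.6 ± 1.02 (Ndufaf1), and Ndufa4 stood at 165 ± 19.1. The scale depends on the transcript chosen: per kb of the median coding transcript, Ndufb7 had 84.5 in place of 11.9, and Ndufa4 had 443. The ranks of subunits changed with it. Ndufa6 (195) then stood above Ndufb9 (171), Ndufa3 (159) above Ndufa2 (123), and Ndufb2 (12.4) above Ndufab1 (12.1).

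**Figure D4:**
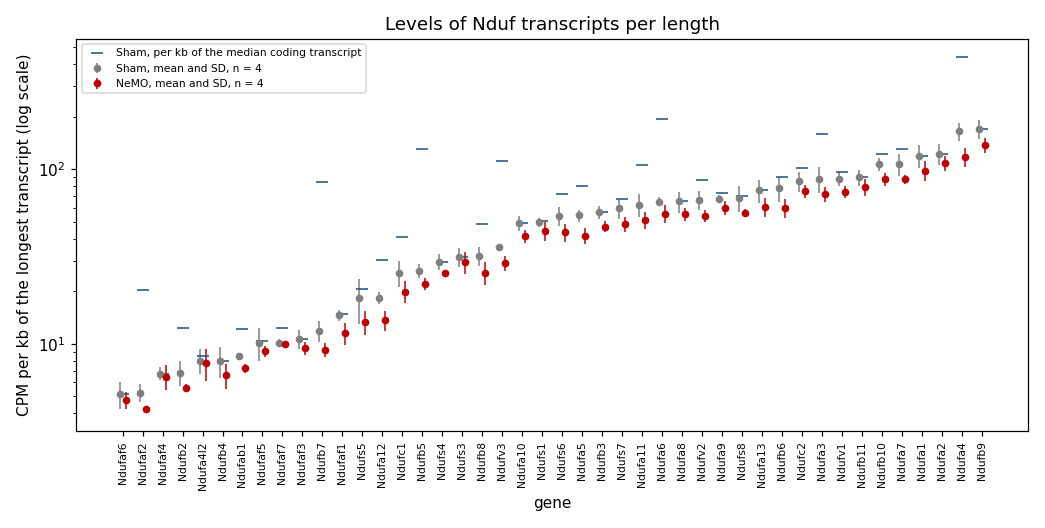
CPM per kb of the longest transcript (log scale) for each Nduf gene reported, as mean and SD of 4 Sham and 4 NeMO libraries, with dashes for Sham per kb of the median coding transcript. Assembly factors lie at the left end of the order and Ndufa4 and Ndufb9 at the right, and for genes such as Ndufb7 and Ndufa4 the dash stands well above the points.

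Some members share sequence with other loci, which makes their single values uncertain. Near copies, at 95% identity or more over at least 200 bases, were found for 8 members, all of them subunits: Ndufa12, Ndufab1, Ndufb11, Ndufb3, Ndufb4, Ndufs3, Ndufs5 and Ndufs6. The copy of Ndufs5 (BC002163) drew 121 counts over the 8 libraries, or 4.28% of the counts of both, and other copies in the table drew at most 21. Of the counts of BC002163, 76 were in NeMO and 45 in Sham, the opposite direction to Ndufs5. The copy of Ndufb4 (Gm3244) was 100% identical over 390 bases and drew 0 counts. Counts of the copies do not show whether a member lost reads. How reads that map to several places were counted is not given in the sources used here. The strand setting is not given either, and Ndufaf2 shares 65.6% of its exon bases with a noncoding gene on the opposite strand, Ndufb6 39.0% with Smim27 and Ndufa13 30.0% with Tssk6. Ndufb9 shares 19.5% of its exon bases with Gm49356 on the same strand.

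The 7 subunits encoded by mitochondrial DNA form the rest of the enzyme. Of these, 5 were tested, and all were below 0 (51.7% of all genes were). Their median was −0.44 (−0.66 when NeMO replicate 1 and −0.26 when NeMO replicate 3 was left out). At an unadjusted p under 0.05, 3 were lower (9.14% of all genes), and none passed the adjusted test of edgeR or DESeq2. Not tested were mt-Nd3 and mt-Nd4l, which had 0 counts in every library. The most abundant, mt-Nd1, measured 4334, 3632, 2826 and 2603 CPM in NeMO and 4343, 4800, 5298 and 4549 CPM in Sham (log2 fold change −0.47 with SE 0.18, edgeR adjusted p = 0.223). NeMO replicate 1 nearly reached Sham replicate 1, whereas NeMO replicates 3 and 4 were lowest. The share of counts from all mitochondrially encoded genes was 2.08 ± 0.493% for NeMO and 2.88 ± 0.235% for Sham (SD, n = 4 each).

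Assembly factors without the Nduf name, 14 genes tested, had a median of −0.10 (−0.04 without NeMO replicate 3), 11 were below 0, and 2 were lower at an unadjusted p under 0.05 (0 past edgeR's adjusted test, 1 with DESeq2). Over all genes tested, 51.7% were below 0, 9.14% were lower at that p, and DESeq2 called 2.72% lower. Tmem261, whose protein is needed for the distal membrane arm, measured 14.9, 13.5, 14.8 and 15.8 CPM in NeMO and 18.3, 22.2, 22.5 and 24.7 CPM in Sham. The groups did not overlap, and the log2 fold change was −0.59 (SE 0.11, edgeR adjusted p = 0.0786). Tmem70, the most abundant of the list, stood at 60.7 ± 9.58 CPM in NeMO and 55.9 ± 3.26 CPM in Sham (log2 fold change 0.14 with SE 0.11, edgeR adjusted p = 0.547).

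The other respiratory complexes gave medians on both sides of the complex I value, and 0 of their genes passed the adjusted edgeR test. The median was −0.13 for complex II (2 of 6 lower at an unadjusted p under 0.05), −0.31 for complex III (8 of 9), −0.41 for complex IV (10 of 14) and −0.29 for ATP synthase (11 of 15), where 9.14% of all genes met that p. DESeq2 (2.72% of all genes) called 1 gene of complex II, 1 of complex III, 10 of complex IV and 4 of ATP synthase lower. Their smallest p in edgeR belonged to Sdhc (−0.41, edgeR adjusted p = 0.0827), Uqcr11 (−0.54, 0.0972), Cox6c (−0.80, 0.0786) and Atp5g3 (−0.32, 0.105). Tricarboxylic acid cycle enzymes had a median of −0.21 (7 of 13), outer membrane and import genes −0.19 (5 of 10) and cytosolic ribosomal proteins, which are short and not mitochondrial, −0.16 (7 of 20). Regulators of mitochondrial biogenesis had a median of −0.00, with 0 lower and 1 higher at an unadjusted p under 0.05, the ETS factor gene Gabpa (mean 57.7 CPM in Sham and 68.2 CPM in NeMO, log2 fold change 0.32 with SE 0.10, edgeR adjusted p = 0.166). For hypoxia response genes the median was 0.01 (−0.10 without NeMO replicate 1), and by the same rule 0 of 12 were lower and 1 was higher, Vegfa at 0.28 (edgeR adjusted p = 0.159). DESeq2 called 1 gene of the acid cycle list and 4 ribosomal protein genes lower, and edgeR's adjusted test called none in these 5 lists. With transcript length corrected, medians were −0.11 for complex II (1 of 6 lower at an unadjusted p under 0.05), −0.19 for complex III (1 of 9), −0.25 for complex IV (8 of 14) and −0.19 for ATP synthase (4 of 15), where 5.81% of all genes met that p. By the same correction the acid cycle stood at −0.12 (3 of 13), outer membrane and import genes at −0.10 (1 of 10) and ribosomal proteins at −0.05 (0 of 20). Whether any of these lists differed from the complex I subunits was not tested.

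**Figure D5:**
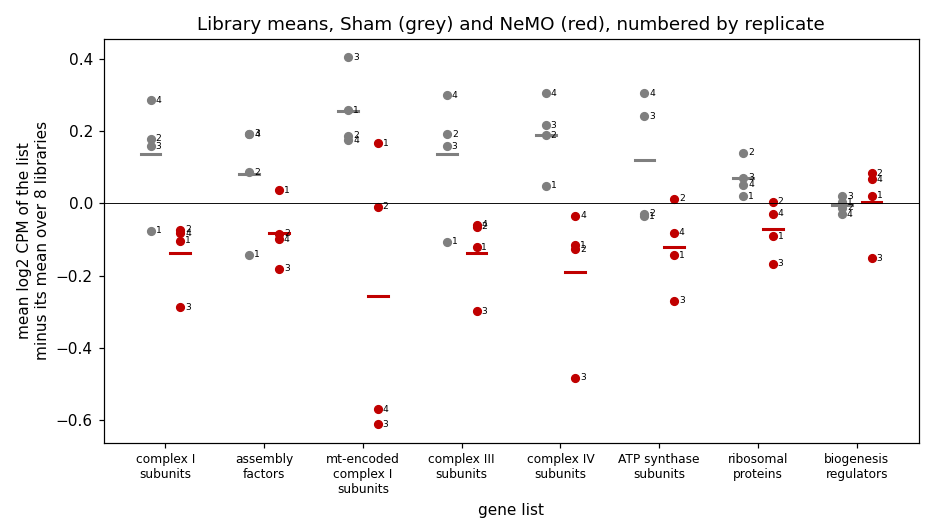
Mean log2 CPM of each gene list in each library, minus its mean over the 8 libraries, with Sham in grey, NeMO in red, replicate numbers beside the points and bars at group means. In the complex I, III and IV lists NeMO replicate 3 is lowest and Sham replicate 4 highest, Sham replicate 1 lies among or close to the NeMO libraries, and the regulators spread around 0.

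Markers of cell types in the bladder wall gave list medians on both sides of 0. Over all genes tested, 51.7% were below 0 and 9.14% were lower at an unadjusted p under 0.05. Smooth muscle markers, the sign of the labelled tissue together with urothelial markers, had a median of −0.04, and leaving out NeMO replicate 1 gave −0.29 where leaving out NeMO replicate 3 gave 0.11. None of the 9 was lower at an unadjusted p under 0.05, and their summed levels were 31853 to 59448 CPM in NeMO and 39459 to 51263 CPM in Sham. Urothelial markers were below 0 in 8 of 8 (median −0.37, 6 lower at an unadjusted p under 0.05), with sums of 5118 to 7589 CPM in NeMO and 6323 to 8282 CPM in Sham. Adipocyte markers were below 0 in 9 of 9 (median −1.21, or −1.93 without NeMO replicate 1, 7 lower at an unadjusted p under 0.05), with sums of 374 to 1240 CPM in NeMO and 974 to 2778 CPM in Sham, and Ucp1, the defining gene of brown fat, never exceeded 15 counts. NeMO replicate 3 had the lowest mean log2 CPM of the adipocyte markers (3.45) and Sham replicate 4 the highest (6.84), the same libraries as for most complex I subunits. These libraries were at the ends of other lists too. NeMO replicate 3 was lowest for smooth muscle (11.3) and nerve and Schwann cell markers (3.39) and highest for fibroblast (10.2) and endothelial markers (6.09). Sham replicate 4 was highest for urothelial (9.70) and skeletal muscle markers (4.33). Medians of the remaining lists were −0.13 for skeletal muscle, 0.21 for fibroblasts, −0.14 for immune cells, 0.13 for endothelium, −0.24 for mesothelium and −0.52 for nerve and Schwann cells. Each of these moved by over 1.5 times or changed sign when 1 library was left out, over −0.50 (without Sham replicate 3) to 0.08 (NeMO replicate 2) for skeletal muscle, −0.05 (NeMO replicate 3) to 0.35 (NeMO replicate 1) for fibroblasts, −0.28 (NeMO replicate 3) to −0.03 (NeMO replicate 2) for immune cells, −0.09 (NeMO replicate 3) to 0.31 (Sham replicate 4) for endothelium and −0.46 (Sham replicate 4) to 0.28 (Sham replicate 2) for mesothelium. For nerve and Schwann cells the range was −0.72 (NeMO replicate 1) to −0.35 (NeMO replicate 3). The part of any cell type in the complex I values was not tested.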

How the data were processed

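The authors deposited whole-number read counts per gene symbol, 1 table per library. Per the submitters' processing notes these came from reads trimmed, aligned and counted with tools that include Trimmomatic, STAR and featureCounts on mm10, beside DESeq2, with annotation, strand setting and versions not given in the sources used here. Totals ran from 27212499 to 36375313 counts. Every pair of libraries within a group differed by more than sampling noise. Counts were tested in R 4.3.3 with edgeR 4.0.16 (filterByExpr, minimum count 10, TMM, robust quasi-likelihood F-test, two-sided, batch and group as terms, Benjamini-Hochberg adjustment over 16370 genes, threshold 0.05). DESeq2 1.42.0 was an alternative. Log2 CPM used a prior count of 2. Length corrections fitted a spline with 4 degrees of freedom to each library and entered as offsets, with lengths and gene positions from GENCODE for 98.9% of genes tested. The fits were tested on simulated data.

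The members and lists were chosen with earlier results of these data known. Named by rule were the core subunits (1 of which is counted but not reported here), all assembly factors, the Ndufa4 family, the 6 subunits of smallest and 2 of largest p, the 2 highest and 2 lowest per length, and from other lists the smallest p or the most abundant gene. Chosen after their values were seen were Ndufa5, Ndufa10, Ndufab1, Ndufb7, Ndufs4, Ndufs5, members named at the ends of a module's range, those named for promoters, near copies or overlaps, and Ndufaf8.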

Additional observations from a re-analysis of the deposited data

Results flagged for a closer look

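The mean log2 CPM over the 36 complex I subunits was 5.43 in NeMO replicate 3, while the other 3 NeMO libraries lay between 5.62 and 5.65. The gap to its nearest neighbour was 0.859 of the group's range, above the Dixon limit of 0.829 for 4 samples. Of 54 groups of values examined in this way this was the 1 that passed, and chance alone passes about 1 in 20. Without NeMO replicate 3 the subunit median was −0.27.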

How the results depend on the processing

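The subunit and assembly factor medians were below 0 under every alternative run. The count of subunits past the adjusted test (0) was 13 with DESeq2 and 0 to 12 when 1 library was left out (12 without NeMO replicate 1). Subunits lower at an unadjusted p under 0.05 (33) numbered 14 in batch 1, 20 in batch 2 (where Sham replicate 4 is the single Sham library and is assumed to vary like the NeMO libraries), 12 with transcript length corrected, 12 with length and GC corrected, 14 with the median coding transcript length corrected (chosen after seeing the data), and 19 to 34 when 1 library was left out. Assembly factors lower by the same rule (3) numbered 0 in each batch alone and under each of the 3 corrections, and 0 to 4 when 1 library was left out. The subunit median was −0.18 with length and GC corrected. The assembly factor median was −0.34 in batch 2 and −0.049 with length corrected. The causes were not tested.

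Same-numbered libraries did not deviate together throughout (correlations −0.01, 0.08, 0.04 and 0.32). So few values cannot decide whether the numbers pair the libraries, and the labels do not say. With the replicate block beside batch, 16 subunits and 0 assembly factors were lower at an unadjusted p under 0.05 (6.40% of all genes), and with the block in place of batch 26 and 2 (8.15%). No subunit or assembly factor passed the adjusted test under either.

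Among the named genes, signs turned for 4 whose log2 fold changes were near 0. Ndufaf6 was 0.013 in batch 1, 0.035 with length, 0.027 with length and GC and 0.011 with median coding length corrected, and −0.22 to 0.012 when 1 library was left out (positive without Sham replicate 4). Ndufaf4 was 0.0052 in batch 1 and −0.17 to 0.073 when 1 library was left out (positive without NeMO replicates 3 or 4 or Sham replicate 4). Ndufaf7 was 0.014 in batch 2, 0.036, 0.0021 and 0.028 under the same corrections, and −0.053 to 0.019 when 1 library was left out (positive without NeMO replicate 3). Ndufa4l2 was 0.022 in batch 1, 0.079 with the block beside batch, 0.079, 0.10 and 0.058 under the corrections, and −0.27 to 0.048 when 1 library was left out (positive without NeMO replicates 1 or 2 or Sham replicates 2 or 4). Counts per library were 137 to 207 for Ndufaf6, 165 to 283 for Ndufb4 and 197 to 319 for Ndufa4l2.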
